A study of Mus musculus with 15 samples.

Results

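Hearts of methamphetamine-treated mice were examined for 8 genes whose products defend mucosal surfaces: Reg3g, Ltf, Pigr, Wfdc2, Dmbt1, Lcn2, Slpi and Camp. They were 8 of the 18350 genes named on the array, and their probes were found by the RefSeq accession that the array gives for each probe. The 8 genes were selected on their signals in these same hearts, so their differences between the 4 groups are given as a description, with no p-value. How many of them crossed the threshold is printed once, beside the share of all genes, and is not evidence. The array held 9 probes for them, 2 for Ltf and 1 for each other gene, and 7 of the 8 genes were measured above background on enough arrays to enter the fit.

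C57BL/6 mice of both sexes were compared, 4 males on meth with 4 on PBS and 4 females on meth with 3 on PBS, with the heart of 1 mouse on each array. Meth (methamphetamine hydrochloride) was injected intraperitoneally each week in sterile phosphate-buffered saline (PBS), in a dose raised over 20 weeks to 40 mg/kg, and controls received PBS alone on that schedule. The mice were 8 to 10 weeks old at the start, and hearts were taken after 5 months. The males came from 2 separate trials of 2 meth and 2 PBS hearts each, and the females from 1. The RNA is that of whole homogenised heart, so that more cells of a type and more RNA per cell cannot be told apart. Values are log2 signals set to 0 at each array's 75th percentile, SE is a standard error from the fit, and SD is the spread between hearts. That percentile was a signal of 307 to 403 on slides 1 to 3 and of 438 to 589 on slide 4, which carried 3 of the 7 female arrays, and each array had 61.3% to 71.4% of its probes well above background. All 6 cardiomyocyte markers (Myh6, Actc1, Tnnt2, Tnni3, Ryr2 and Pln) were above background on all 15 arrays, and none differed between meth and PBS in limma at an adjusted p under 0.05 in either sex.

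Mucosal surfaces are kept clean by proteins that epithelial cells and neutrophils secrete. Some kill or bind microbes directly, some starve them of iron, some hold neutrophil proteases in check, and the polymeric immunoglobulin receptor carries IgA across the epithelium into the lumen. Several of these genes are also induced by interleukin-17, interleukin-22 and interleukin-1 through NF-kB, STAT3 and C/EBP factors. They are best known from gut, airway, glands and skin, and Lcn2 is also made in injured or inflamed heart.

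Reg3g, Ltf, Wfdc2 and Pigr were highest together in the male meth hearts, and the DNA around their start sites is shown so that it can be set beside that pattern. Each sequence runs from 250 bases before to 50 bases after the start, 5′ to 3′ on the gene's own strand (RefSeq, build GRCm38.p6). Capitals mark matches, on either strand, to 4 short motifs: GGNNNTTCC (an NF-kB type site), TTCNNNGAA (STAT), TTNNGNAAT (C/EBP) and TATAAA (the TATA box). Windows were found for 7 of the 8 genes, all except Dmbt1, and positions below count from 0 at the start base.
Reg3g, chr6:78468825-78469124, minus strand.
Reg3g: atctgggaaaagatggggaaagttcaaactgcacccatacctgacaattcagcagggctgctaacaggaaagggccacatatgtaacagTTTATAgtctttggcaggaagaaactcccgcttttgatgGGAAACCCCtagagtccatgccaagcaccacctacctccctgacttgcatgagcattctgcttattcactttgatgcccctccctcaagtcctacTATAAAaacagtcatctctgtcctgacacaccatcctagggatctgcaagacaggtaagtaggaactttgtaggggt
Ltf, chr9:111019042-111019341, plus strand.
Ltf: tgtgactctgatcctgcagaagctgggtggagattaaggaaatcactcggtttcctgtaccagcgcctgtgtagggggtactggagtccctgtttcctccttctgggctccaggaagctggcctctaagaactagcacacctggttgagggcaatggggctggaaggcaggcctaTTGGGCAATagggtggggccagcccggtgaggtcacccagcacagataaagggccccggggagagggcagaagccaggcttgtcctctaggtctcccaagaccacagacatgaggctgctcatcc
Wfdc2, chr2:164562465-164562764, plus strand, the first of 2 windows listed.
Wfdc2: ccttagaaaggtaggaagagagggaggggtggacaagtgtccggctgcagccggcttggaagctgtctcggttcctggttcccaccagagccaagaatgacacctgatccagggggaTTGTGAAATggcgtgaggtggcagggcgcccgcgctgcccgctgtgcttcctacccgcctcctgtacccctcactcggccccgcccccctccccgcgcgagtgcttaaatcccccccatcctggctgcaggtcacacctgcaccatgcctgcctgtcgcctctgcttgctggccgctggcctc
Pigr, chr1:130826434-130826733, plus strand.
Pigr: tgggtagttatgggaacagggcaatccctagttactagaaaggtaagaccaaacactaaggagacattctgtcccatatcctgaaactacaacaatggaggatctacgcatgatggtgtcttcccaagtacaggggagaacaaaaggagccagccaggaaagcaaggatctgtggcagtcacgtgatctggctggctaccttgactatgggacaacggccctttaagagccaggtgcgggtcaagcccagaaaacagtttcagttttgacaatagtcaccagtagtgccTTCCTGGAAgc

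Only the Reg3g window held a TATA box, at -27 and, on the opposite strand, at -161, and an NF-kB type match, also on the opposite strand, at -122. Ltf held a C/EBP match at -75 and Wfdc2 one at -133, and Pigr held a STAT match at 39, past the start. In the windows that are not printed, Slpi held C/EBP matches at -241 and -65, and Lcn2 and Camp held none of the 4. No 2 different motifs overlapped. Among 32851 mouse windows of this length, 18.5% held the NF-kB type letters, 8.3% the STAT letters, 11.5% the C/EBP letters and 13.6% the TATA box, against 1, 1, 3 and 1 of the 7 windows here. Of the 4 genes printed, Ltf and Wfdc2 shared the C/EBP letters, and no motif was in all 4 windows.

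Reg3g encodes a secreted C-type lectin that binds and kills Gram-positive bacteria. On the 4 male meth arrays its normalized log2 signal was 1.23 and 3.05 in trial 1 and 1.57 and 1.21 in trial 2. On the 4 male PBS arrays it was -7.21, -7.22, -7.42 and -6.39, with none of them well above background. Every meth male thus read above every PBS male, with no overlap. The log2 fold change was 8.82 ± 0.63 (SE), and as a bound Reg3g was at least 108-fold higher after meth. Such a bound sets the mean of the brighter group against the lowest signal that counted as well above background on each array of the dim group, or, if brighter, the signal of the probe itself.

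In females, Reg3g was -2.31, -5.03, -4.53 and -2.09 after meth and -7.17, -6.62 and -7.07 after PBS. It was well above background on 3 of the 4 meth arrays and on no PBS array, with a log2 fold change of 3.46 ± 0.68 (SE) and a bound of at least 3.49-fold. All 4 female meth arrays lay above all 3 PBS arrays. Within slides the difference of meth minus PBS was 4.86 on slide 1, 1.59 on slide 2 and 3.76 on slide 4 in females, and 8.44, 10.27 and 8.29 on slides 1 to 3 in males. Every female meth value lay below every male meth value.

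Ltf encodes lactoferrin, the iron-binding protein of secretions and of neutrophil secondary granules. By its brighter probe the male meth arrays read 0.99, 2.82, -0.62 and 1.93 and the male PBS arrays -6.97, -7.04, -7.12 and -6.90. None of those PBS arrays was well above background, the log2 fold change was 8.29 ± 0.58 (SE), and Ltf was at least 77.1-fold higher. The second probe gave 6.80 ± 0.58 (SE) and at least 43.3-fold. In females the brighter probe read -4.02, -5.50, -4.59 and -3.65 after meth and -5.84, -6.52 and -5.47 after PBS, and the lowest meth array lay just below the highest PBS array. It was well above background on 3 of the 4 female meth arrays and 1 of the 3 female PBS arrays, but on neither female array of slide 2. On each of the 3 slides with females the meth hearts were above the PBS heart, by 1.81, 1.02 and 1.35. The female log2 fold change was 1.50 ± 0.63 (SE) by this probe (0.44 with normexp background correction) and 1.27 ± 0.63 (SE) by the other. That other probe was well above background on 2 female meth arrays and on no female PBS array.

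Wfdc2 encodes a whey acidic protein with antiprotease-type domains that is secreted by airway and reproductive tract epithelium. Unlike Reg3g and Ltf, it was well above background on all 15 arrays. It read 2.28, 3.92, 1.21 and 2.32 in male meth hearts against -1.08, -0.91, -1.08 and -1.08 in male PBS hearts, for a log2 fold change of 3.47 ± 0.49 (SE) or 11.1-fold. In females the order was not the same: -0.55, -1.81, -2.54 and -1.10 after meth and -1.29, -0.33 and -1.57 after PBS. These female arrays overlapped, the within-slide differences were 0.74, -1.48 and -0.26, and the log2 fold change was -0.44 ± 0.53 (SE).

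Pigr encodes the polymeric immunoglobulin receptor. The male meth arrays read -5.25, -3.19, -4.74 and -4.06 and the male PBS arrays -6.89, -6.95, -7.10 and -6.92. It was well above background on 3 of 4 male meth arrays, on all of them except trial 1 replicate 1, and on none of the other 11 arrays. The male log2 fold change was 2.66 ± 0.36 (SE), and the bound was at least 1.60-fold. Female arrays read -7.75 to -6.82 in both treatments together, none well above background, so that no female fold is given.

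**Figure D1:**
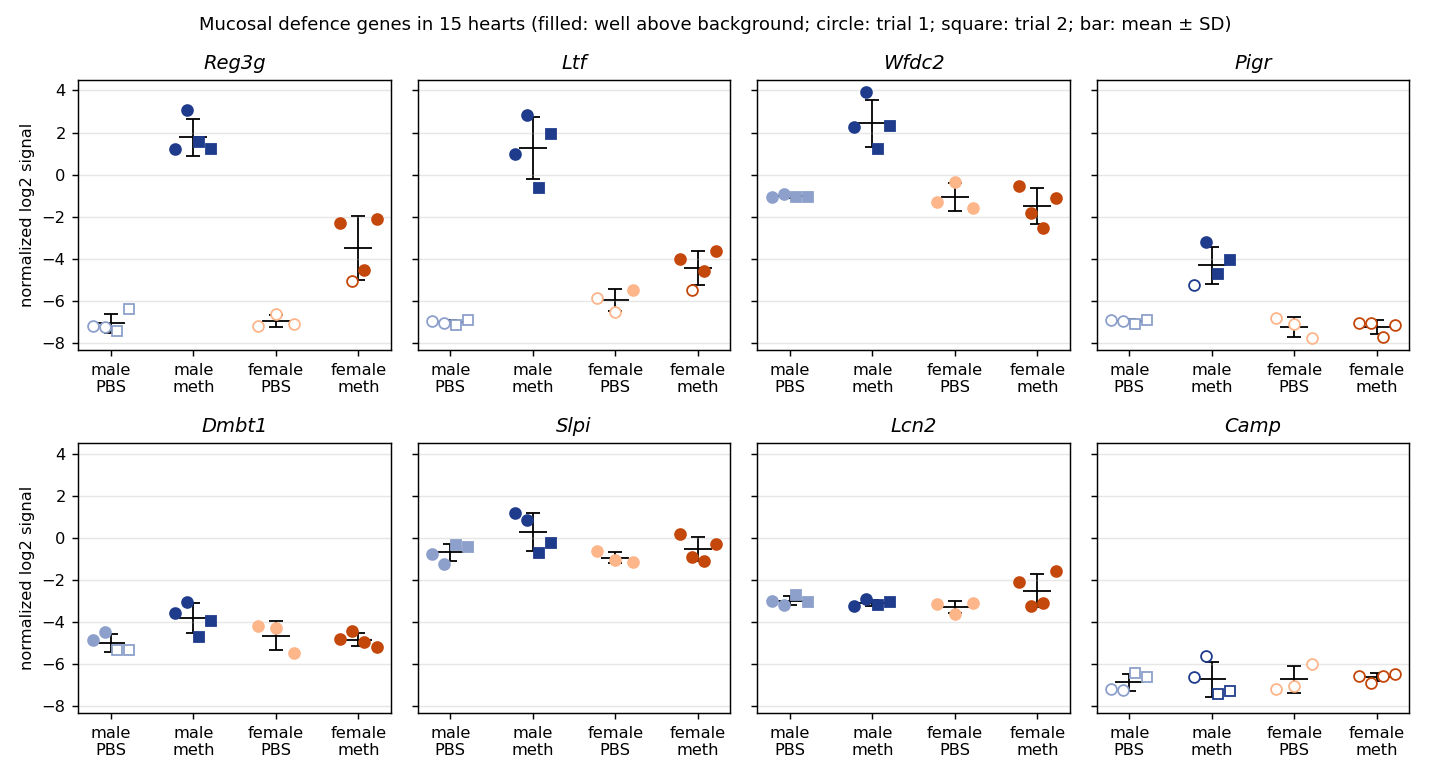
Normalized log2 signal (vertical axis, 0 is an array's 75th percentile) of the 8 genes in the 4 groups, 1 point per heart, with the brighter probe for Ltf. Filled points were well above background, circles are trial 1, squares are trial 2, and bars are the mean ± SD of 4 hearts (3 for female PBS). Reg3g, Ltf, Wfdc2 and Pigr are higher in all 4 male meth hearts than in any male PBS heart, and Lcn2 and Camp are not.

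The remaining members differed less between the groups. Dmbt1 encodes a scavenger receptor cysteine-rich protein of saliva and airway fluid that clumps bacteria. It read -3.58, -3.03, -4.72 and -3.93 in male meth hearts against -4.83, -4.44, -5.32 and -5.32 in male PBS hearts, for a log2 fold change of 1.17 ± 0.28 (SE). The lowest meth array, from trial 2, was below 1 PBS array of trial 1, but in each trial both meth arrays were above both PBS arrays. Dmbt1 was well above background on 13 arrays, all except the male PBS arrays of trial 2. In females Dmbt1 read -5.15 to -4.41 after meth and -5.45 to -4.19 after PBS (log2 fold change -0.19 ± 0.30, SE).

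Slpi encodes the secretory leukocyte protease inhibitor, which guards epithelium against neutrophil elastase. It was well above background on all 15 arrays. In trial 1 the male meth arrays read 1.20 and 0.84 and the PBS arrays -0.76 and -1.22. In trial 2 they read -0.72 and -0.22 after meth and -0.32 and -0.44 after PBS, where the groups overlapped. Over both trials the log2 fold change was 0.96 ± 0.39 (SE). In females Slpi read 0.18, -0.89, -1.08 and -0.30 after meth and -0.64, -1.03 and -1.14 after PBS, a log2 fold change of 0.41 ± 0.42 (SE) with overlapping arrays.

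Lcn2 encodes lipocalin 2, which binds bacterial siderophores and so withholds iron. It differed from lactoferrin, the other iron-withholding protein here, in its male values. The male meth arrays read -3.22, -2.88, -3.18 and -3.05 and the male PBS arrays -3.00, -3.17, -2.69 and -3.05, all well above background, with a log2 fold change of -0.10 ± 0.30 (SE). In females it read -2.10, -3.24, -3.08 and -1.59 after meth and -3.12, -3.62 and -3.09 after PBS, a log2 fold change of 0.77 ± 0.33 (SE). On each of the 3 slides with females the meth side was higher, by 1.02, 0.38 and 0.75. Replicates 1 and 4 of the female meth group were the 2 highest of all 15 arrays for Lcn2, and they were also the 2 highest female arrays for Reg3g. Camp encodes the cathelicidin antimicrobial peptide precursor of neutrophils and epithelium. None of the 15 arrays read it well above background (-7.40 to -5.59), so no difference is given.

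The members were part of the limma fit over all probes, and their selection on these values fixes how many cross its threshold. In males 4 of the 7 measured were past an adjusted p of 0.05 (Reg3g, Ltf, Wfdc2 and Pigr, the last in the fit only through its 3 male meth arrays above background), where 1.04% of 14216 genes were called higher and 0.295% lower. In females 1 was past it (Reg3g), where 0.239% of genes were called higher and 0.204% lower, and it was not past it under 20 of 29 alternatives, the replicate block among them. Every meth array lay above every PBS array for 4 of the 7 in males, as for 5.82% of genes, and for 1 of the 7 in females, as for 4.22%. For the male minus female difference 1 was past it (Ltf), where 0.155% of genes were, and with the replicate block none of the 28357 probes was. That difference was 6.79 ± 0.85 (SE) on the log2 scale for Ltf, 5.36 ± 0.93 (SE) for Reg3g and 3.91 ± 0.72 (SE) for Wfdc2. Reg3g was well above background on no PBS array of either sex and Ltf on no male PBS array, so their values rest on signals near background. The difference was 1.36 ± 0.41 (SE) for Dmbt1, 0.54 ± 0.57 (SE) for Slpi and -0.88 ± 0.45 (SE) for Lcn2. None is given for Pigr, which was well above background on no female array. Nothing is read from these counts.

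The trial was not used to choose the genes, so whether the male response differed between the 2 trials could be tested. In trial 1 the log2 fold changes were 9.36 for Reg3g, 8.91 for Ltf, 4.10 for Wfdc2, 2.70 for Pigr and 1.33 for Dmbt1. In trial 2 they were 8.29, 7.67, 2.84, 2.61 and 1.00 in the same order. The genes were selected on the male hearts of both trials, so the shared direction follows from that selection and is no replication. Trial 2 minus trial 1 was -1.06 ± 1.28, -1.25 ± 1.15, -1.26 ± 0.95, -0.10 ± 0.75 and -0.34 ± 0.58 (SE). Lcn2 was near 0 in both, at 0.03 ± 0.45 (SE) in trial 1 and -0.24 ± 0.45 (SE) in trial 2. Slpi had 2.01 ± 0.36 (SE) in trial 1 and -0.09 ± 0.36 (SE) in trial 2. The neutrophil calprotectin subunits had a like order, 0.22 and -2.09 for S100a8 and 0.32 and -1.96 for S100a9 in trials 1 and 2, and their own trial differences did not pass (adjusted p = 1 each). The summed level of the neutrophil markers, in units of an array's 75th percentile, was 6.72 and 6.38 after meth and 6.14 and 4.61 after PBS in trial 1, and 1.71 and 2.99 after meth and 10.03 and 7.67 after PBS in trial 2, and its part in the Slpi values was not tested. The trial 2 minus trial 1 difference for Slpi was -2.10 ± 0.51 (SE), with an unadjusted p of 0.00165 and an adjusted p of 0.834 in limma. It did not pass, and 0 of 14216 genes (0%) passed for this contrast in limma. An unadjusted p under 0.05 was reached by 1294 of the 28357 probes tested and by 1 of the 7 members. For the other 6 members the adjusted p was 1. With 2 hearts a group in each trial, the number of arrays limits what this test can show.

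**Figure D2:**
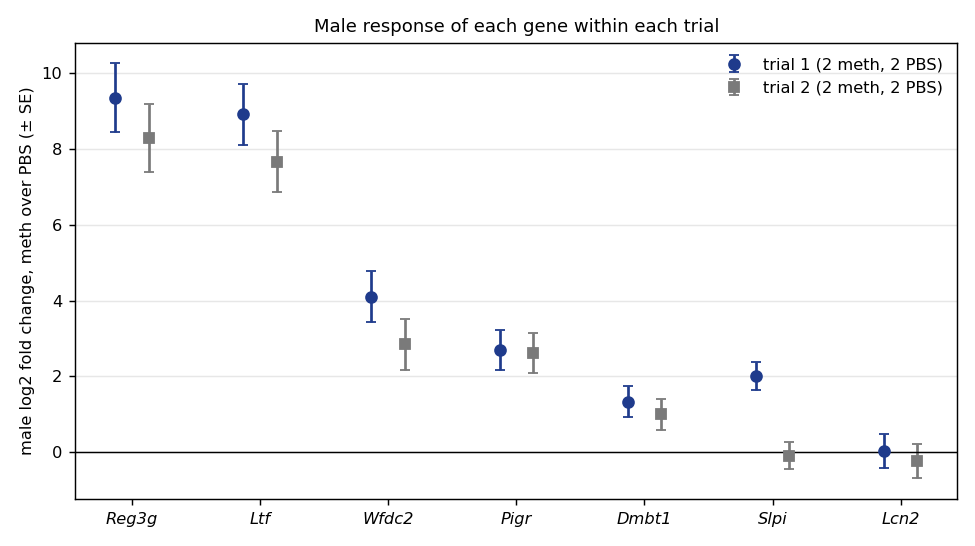
Male log2 fold change of meth over PBS (vertical axis, ± SE) of the 7 measured genes, within trial 1 (circles) and trial 2 (squares), each from 2 meth and 2 PBS hearts. Reg3g, Ltf, Wfdc2, Pigr and Dmbt1 are above 0 in both trials, Slpi is at 2.01 in trial 1 and -0.09 in trial 2, and Lcn2 is near 0 in both.

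Markers of airway epithelium were high in the same male meth hearts. Marker lists were drawn up with earlier results of these data known, so their counts are descriptions and no independent check. Over all genes 1.04% were called higher in males and 0.239% in females. Of 7 airway secretory markers, 6 were on the array by accession, and all 6 rose in males (limma): Bpifa1 by 12.13, Scgb1a1 by 9.29, Scgb3a1 by 5.70, Cyp2f2 by 5.02, Bpifb1 by 4.98 and Cldn10 by 0.67 on the log2 scale. Their summed level, in units of an array's 75th percentile, was 33.2 to 168 in male meth hearts and 0.546 to 0.657 in male PBS hearts. In females it was 1.16 to 3.91 after meth and 1.65 to 3.10 after PBS, and 1 of the 6 markers, Bpifa1, rose. Scgb1a1, the club cell secretoglobin, had a mean of 0.56 in female PBS hearts and of -5.35 in male PBS hearts, while Reg3g was above background in neither group.

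Of the 6 ciliated cell markers 3 were measured on enough arrays to be tested, of which Foxj1 and Dynlrb2 rose in males and none in females, Foxj1 being above background on the 4 male meth arrays alone. The summed level of the 6 was 0.428 to 1.43 in male meth hearts and 0.125 to 0.152 in male PBS hearts. Of 8 general epithelial markers 6 were tested, and Cdh1, Krt18 and Cldn7 rose in males and none in females. Cdh1 entered the test only through 3 male meth arrays above background, so that it had to be higher there. The summed level of the epithelial markers was 4.10 to 6.90 in male meth hearts and 2.23 to 3.62 in male PBS hearts, and Cldn4 was above background on no array. None of the 3 alveolar type 2 cell markers tested of 4 rose in either sex, Sftpb was above background on no array, and Sftpc fell in females by 2.08 on the log2 scale. Neither of the 2 intestinal markers tested of 4 passed, and Cdx2 and Cdh17 were above background on no array.

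Lcn2, Ltf, Camp and Slpi are also made by neutrophils. Of 10 neutrophil markers 9 were on the array and 6 were tested, none of which passed in either sex, and Elane and Ngp were above background on no array. Their summed level was 1.71 to 6.72 in male meth hearts, 4.61 to 10.03 in male PBS hearts, 2.29 to 9.45 in female meth hearts and 5.76 to 6.93 in female PBS hearts. None of the 4 macrophage markers measured passed in either sex. Of the 5 B and plasma cell markers, Jchain rose in males. The part that epithelial or other cells in the tissue had in the members' values was not tested.

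**Figure D3:**
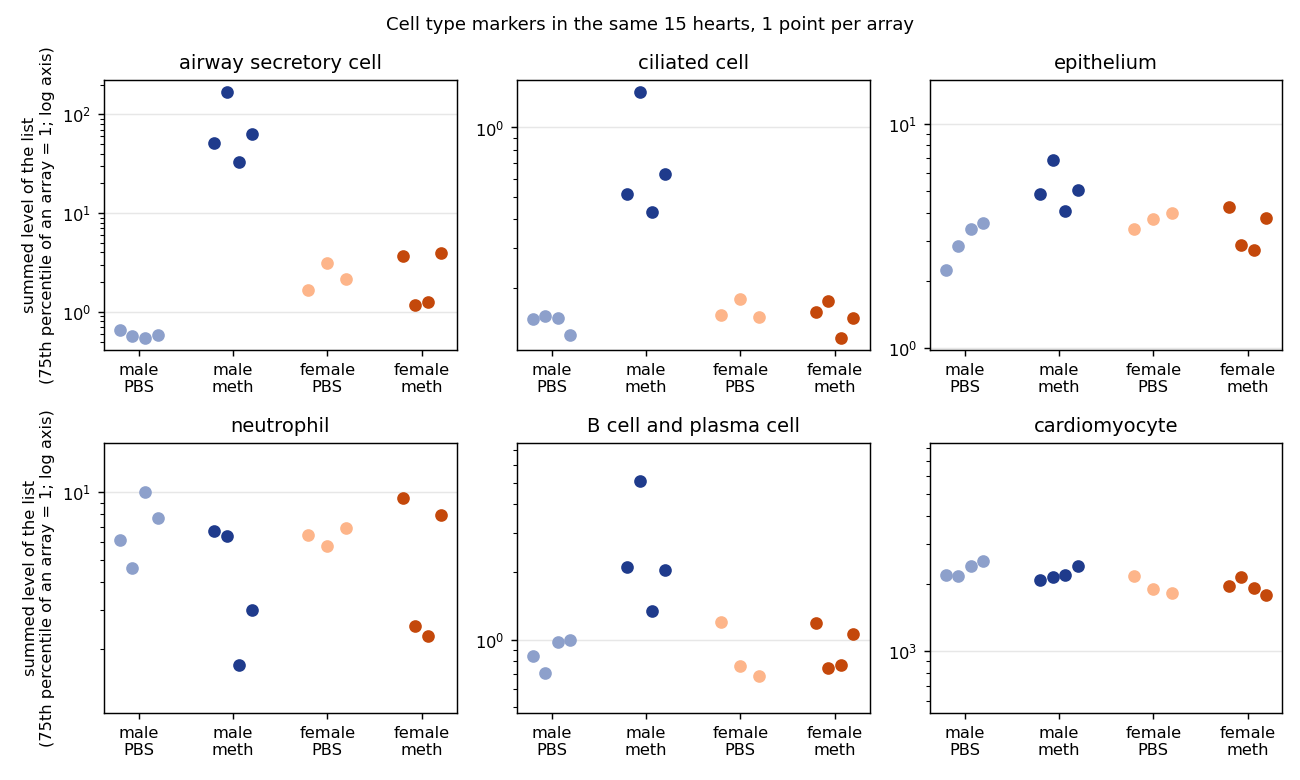
Summed level of 6 lists of cell type markers on each of the 15 arrays (vertical log axes, in units of an array's 75th percentile), 1 point per heart, by group. Airway secretory and ciliated markers are higher in all 4 male meth hearts than in any other heart, neutrophil markers overlap between groups, and cardiomyocyte markers lie between 1777 and 2509 in all 15.

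Across the 15 arrays, the mean of the 7 measured members, each centred on its own mean, was most like Cyp2f2 (Pearson r = 0.99), Scgb3a1 (0.99), Dynlrb2 (0.97), Agr2 (0.97) and Tspan1 (0.97), out of 14187 genes with a value on every array. Cyp2f2 is a club cell cytochrome P450, and Dynlrb2 a dynein light chain of cilia. Reg3g was most like Bpifa1, Scgb3a1 and Bpifb1, all secreted airway proteins (r = 0.96 to 0.99). Ltf was most like Scgb3a1, Cyp2f2 and Cyp2a4, Pigr like Tmem212, Foxj1 and Krt15, and Wfdc2 like Gpx2, Krt15 and 1600029I14Rik. For Dmbt1 these were Cfap126, Aqp11 and Armc3 (r = 0.85 to 0.89), for Slpi Mylip, Tent5c and Adh7 (0.81 to 0.91), and for Lcn2 Cxcl13, Mpc1 and Fpr1 (0.83 to 0.86). All these points share the 4 groups, so a gene that is high only in male meth hearts scores high here.

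The members also varied together within groups to different degrees. With each group's mean removed, Reg3g and Lcn2 had r = 0.75 over the 15 arrays, against 0.17 before. Both spread most in the female meth hearts (SD 1.51 for Reg3g and 0.79 for Lcn2), so this r rests mostly on that group. Reg3g and Wfdc2 had r = 0.71 within groups, against 0.84 before. Reg3g and Dmbt1 had r = 0.01 within groups and 0.61 before. Male meth trial 1 replicate 2 was the highest of the 15 arrays for Reg3g, Ltf, Wfdc2, Pigr and Dmbt1, but not for Slpi or Lcn2. These correlations are descriptions over 15 arrays of 4 slides.

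A list of 88 mucosal defence genes outside the members was taken in 8 classes. It was drawn up with earlier results of these data known, so the shares called describe the list and are no independent check. Accessions matched 83 of the 88 genes, and 54 were measured on enough arrays to be tested. In males 8 of the 54 rose (14.8%, where 1.04% of all genes were called higher) and 0 fell, in limma with adjustment over all 28357 probes tested. An unadjusted p under 0.05 was reached by 17 (31.5%, against 13.2% of all genes). Of the 8, Tff2, Agr2 and Sftpa1 entered the test only through male meth arrays above background, so that they had to be higher there, and the other 5 were also above background on arrays of other groups. The median log2 fold change of the 54 was 0.21 in males, against -0.02 over all genes. In females 0 passed in limma, with an unadjusted p under 0.05 for 7 (13%, against 7.82% of all genes), and the median was 0.12 against 0.03 over all genes. The male minus female difference passed for 2 genes, Tff2 and Sftpd, as for 0.155% of all genes, with an unadjusted p under 0.05 for 12 (22.2%, against 8.12%).

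The class with the largest number of calls was that of IgA transport, mucins and mucus proteins, in which 5 of 9 tested genes rose in males. Jchain, the joining chain of the polymeric IgA that the receptor encoded by Pigr transports, read 0.37, 1.92, -0.31 and 0.17 in male meth hearts and -1.77, -3.54, -2.17 and -2.36 in male PBS hearts, all above background. Its log2 fold change was 3.00 ± 0.58 (SE, adjusted p = 0.0299), and its second probe gave 3.09 (adjusted p = 0.0223). Jchain was thus higher on all 4 male meth arrays than on any male PBS array, as were 5.82% of all genes. Pigr had the same order but was selected on these values, so it adds nothing to the Jchain result. The male call of Jchain was lost under 10 of 29 alternatives. In females Jchain had a log2 fold change of 0.95 ± 0.62 (SE, adjusted p = 0.647).

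Tff2, a trefoil peptide of mucus, was well above background on the 4 male meth arrays (-2.85, -1.24, -2.25 and -1.65) and on none of the other 11. It was at least 7.94-fold higher in males (adjusted p = 4.08e-05, or 9.5e-05 with all 41174 probes tested and no filter). The fitted male minus female difference was 4.34 ± 0.52 on the log2 scale (SE, adjusted p = 0.00569, or 0.0128 with no filter). That difference is not a measured size, since no female array and no male PBS array read Tff2 well above background. Agr2, a disulfide isomerase needed to fold mucins, was likewise above background on the 4 male meth arrays alone, at least 3.25-fold higher (adjusted p = 0.000652, or 0.00137 with no filter). The gel-forming mucin Muc5b rose at least 3.68-fold (adjusted p = 0.0228), and Fcgbp, a mucus protein that binds the IgG Fc part, at least 1.55-fold (adjusted p = 0.0488, and 0.0153 for its second probe). The goblet cell mucin Muc5ac was above background on 12 arrays with a male log2 fold change of 0.26 ± 0.30 (SE, adjusted p = 0.774). The ciliated and secretory airway markers rose in these same 4 hearts, and their part in this class was not tested.

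Among collectins, ficolins and complement, 3 of 8 tested genes rose in males. Sftpd, the lung collectin surfactant protein D, was not above background on any male PBS array and read -3.80, -2.02, -4.59 and -2.75 after meth, at least 3.23-fold higher (adjusted p = 0.00694). In females it read -3.88, -2.55 and -3.56 after PBS and -4.69, -5.55, -6.94 and -4.77 after meth, the opposite order (log2 fold change -2.16 ± 0.61, SE, adjusted p = 0.143). The male minus female difference was 5.98 ± 0.83 (SE, adjusted p = 0.0109). The alveolar marker Sftpc fell in the same females, from a mean of -1.61 after PBS to -3.68 after meth (adjusted p = 0.0143), was above background on no male array, and its part in the Sftpd values was not tested. Sftpa1, the collectin surfactant protein A, was at least 1.74-fold higher in males (adjusted p = 0.026, or 0.0478 with no filter), was above background on 3 of 4 male meth arrays and no other, and its second probe was above background on no array. Cfd, complement factor D or adipsin, a product of fat cells, was higher after meth by 1.44 ± 0.30 (SE) on the log2 scale in males (adjusted p = 0.0444), and differed by 1.37 ± 0.33 (SE) in females (adjusted p = 0.0829). C3, the central complement component, had a male log2 fold change of 0.12 and a female one of 0.27, with adjusted p = 0.761 and 0.541.

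**Figure D4:**
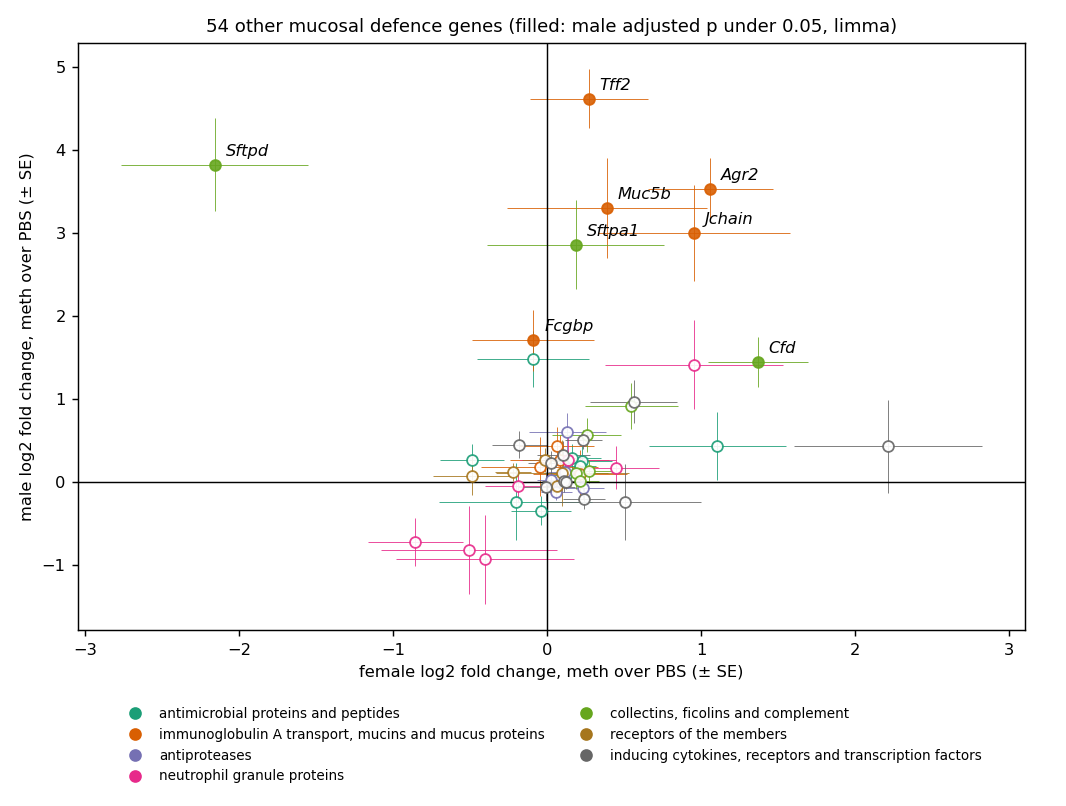
Log2 fold change of meth over PBS in males (vertical axis) against females (horizontal axis), each ± SE, for the 54 tested genes of the mucosal defence list, coloured by class. The 8 filled points passed in males (adjusted p under 0.05, limma). Tff2 and Sftpd, whose sex difference passed, lie at 4.62 and 3.82 for males and at 0.27 and -2.16 for females. Neither was well above background on a male PBS array, nor Tff2 on any female array, so these sizes rest on signals near background.

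In the other classes 0 genes passed in either sex in limma. None of the 8 Reg-family and other lectins was above background on 3 arrays, so that Reg3b, the close relative of Reg3g, and Reg1, Reg2, Reg3a, Reg3d, Reg4 and Itln1 were above background on no array, and Zg16 on 2. Of the Reg genes looked at, Reg3g was thus the one measured above background in any heart. Of the antimicrobial proteins and peptides, 9 were tested, and the brightest, the lysozyme Lyz1, differed by 0.25 on the log2 scale in males (adjusted p = 0.603) and by 0.23 in females (adjusted p = 0.764). Of the neutrophil granule proteins 7 were tested, with a male median of -0.05, and S100a9, a subunit of calprotectin, had a male log2 fold change of -0.82 ± 0.53 (SE, adjusted p = 0.563).

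Of 5 antiproteases tested the brightest was Cst3, which encodes cystatin C (male log2 fold change 0.02, adjusted p = 0.962). All 5 receptors of the members were tested, and the brightest, the Reg protein receptor candidate Extl3, had -0.05 (adjusted p = 0.849). Of the inducing cytokines, receptors and transcription factors 11 were tested. Il17a and Il22, the cytokines known to induce Reg3g in the gut and airway, were above background on no array. The brightest gene of this class, the C/EBP factor Cebpd, differed by 0.51 ± 0.11 (SE) on the log2 scale in males (adjusted p = 0.0527) and by 0.24 in females (adjusted p = 0.513).

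Calls in this list depended on the processing for most genes. With the replicate number as a block, 3 list genes passed in males and 0 for the sex difference, for which Tff2 and Sftpd had adjusted p = 0.0774 each. In males this block gave adjusted p = 0.0838 for Jchain, 0.0519 for Muc5b, 0.126 for Fcgbp, 0.0581 for Sftpa1 and 0.144 for Cfd, while Tff2, Agr2 and Sftpd still passed. With normexp background correction, which lifts low signals, 1 list gene passed in males and 0 for the sex difference. Under normexp only Jchain kept its male call, and Tff2 and Agr2, which kept theirs under every other limma setting that tested them, had adjusted p = 0.26 and 0.815. Fcgbp lost its call under 19 of 28 alternatives and Cfd under 20 of 29.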

How the data were processed

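RNA of 15 mouse hearts was measured on Agilent 1-colour arrays (Mouse GE 4x44K v1). The authors labelled it with Cy3, scanned the slides, and took from the images, spot by spot, an intensity with the background subtracted, using Feature Extraction (version 9.1 per the submitters' processing notes, 10.5.1.1 per the file headers). No scaling between arrays was applied to the deposited intensity columns. The deposited table of log2 values equals the log2 signal plus a constant for each array and was used as an alternative.

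Sex, treatment, trial and replicate come from the titles; the source names of 3 female arrays give another trial, which was tried as an alternative. Control spots were left out, outlier spots set to missing, spots of a probe averaged, and each array shifted by its 75th percentile. A probe was well above background where more than 50% of its spots were. Of 41174 probes, 28357 were so on at least 3 of 15 arrays and were tested. Accessions named 26918 probes and 18350 genes through the RefSeq table, 14219 of them tested, and a gene's probe is its brightest by mean signal.

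limma 3.58.1 in R 4.3.3 fitted the 15 arrays together (4 groups and trial), or with a group for each male trial, with Benjamini-Hochberg adjustment over all probes tested and 0.05 as the threshold. The fit was tested on simulated data. Plots used matplotlib 3.10.9.

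The members and lists were chosen with earlier results of these data known. Named are all members, the list genes past the threshold (at most 10 a contrast), the brightest gene of a class with none, and counts of marker lists; Muc5ac, C3, Reg3b, Il17a, Il22 and the other lectins were named after their values were seen, as were single marker genes. Alternatives were normalization, normexp (offset 50), filters, a signal floor, trial and slide terms, the replicate block, trial 1 alone, another probe, the methods' paired t-test and leaving out each array.

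Replicate numbers were checked by the correlation of deviations from the group means over 23807 probes. In females same-numbered arrays share a slide and correlated at 0.30, 0.44 and 0.66. In males they correlated at 0.26 to 0.40, and at -0.09 and 0.01 within a trial, which the fit already holds. On arrays the number of hearts sets the precision. Whether each array is from a separate mouse is as the methods state it.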

Additional observations from a re-analysis of the deposited data

Results flagged for a closer look

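Wfdc2 (probe A_51_P465211) in male PBS trial 1 replicate 2 read -0.91 where the other 3 male PBS hearts read -1.08 each, so that this gap took 0.967 of the group's narrow range. It is 1 of 34 groups of 4 hearts looked at in this way, of which chance alone would give about 1 in 20. The difference between male meth and male PBS hearts is far larger than this gap.

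For Tff2 the fitted male minus female difference in response was 4.34 on the log2 scale (adjusted p = 0.00569, limma), with all 4 male meth hearts above all male PBS hearts. Tff2 was well above background on the 4 male meth arrays alone and entered the test only through them, so that it had to be higher there. Its size rests on signals near background in the other groups, and was 0.92 with normexp. The response of Sftpd was larger in males by 5.98 (adjusted p = 0.0109, limma), with all 4 male meth hearts above all male PBS hearts and all 4 female meth hearts below all female PBS hearts. Sftpd was well above background on no male PBS array and on 2 of the 4 female meth arrays, so that size rests partly on signals near background. It was 1.09 with normexp, and the call was lost under 4 of 28 alternatives. In female PBS hearts the airway secretoglobin Scgb1a1 read -0.04, 1.17 and 0.55, and in female meth hearts -0.21, -1.90, -1.57 and 0.0049, beside the Sftpd values. The alveolar marker Sftpc had means of -1.61 in female PBS, -3.68 in female meth and -6.64 in male PBS hearts, and its female fall of -2.08 on the log2 scale passed (adjusted p = 0.0143, limma). The part of either marker in the Sftpd values was not tested.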

How the results depend on the processing

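The count of list genes called in males was 8. It was 1 with normexp, 4 with probes above background on all arrays, 5 with a floor on low signals, 3 with the replicate block, 2 with trial 1 arrays alone and 0 with the methods' paired t-test (16 at an unadjusted p under 0.05). Leaving out 1 array gave 3 to 7, with 3 without male meth trial 1 replicate 2 or male PBS trial 2 replicate 2, and 4 without male PBS trial 1 replicate 1 or 2, male PBS trial 2 replicate 1 or male meth trial 2 replicate 2. A floor ended the calls of Fcgbp, Sftpa1 and Sftpd (adjusted p = 0.224, 0.402 and 0.116). For the sex difference the count was 2, and 0 with normexp, with probes above background on all arrays, with the replicate block and with trial 1 arrays alone, and 1 with a floor. Leaving out 1 array gave 2 each time. No alternative called a list gene in females or a member for the trial difference. Over all probes, 227 were called higher and 87 lower in males, against 41 and 12 with normexp and 312 and 213 with slide as a block. In females these were 58 and 157, against 73 and 51 after a median shift. For the trial difference, leaving out male PBS trial 1 replicate 2 called 9 probes higher and 51 lower, none a member. The cause of these changes was not tested.

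Members kept their direction in males except Lcn2, at 0.03 with trial 1 arrays alone. Male log2 fold changes ran from 4.32 (normexp) to 9.36 for Reg3g, 3.78 (normexp) to 8.92 for Ltf, 3.00 (normexp) to 4.10 for Wfdc2, 0.40 (normexp) to 3.06 for Pigr, 0.28 (normexp) to 1.36 for Dmbt1 and 0.66 to 2.01 for Slpi. In females Reg3g ran from 0.91 (normexp) to 3.98 and Ltf from 0.44 (normexp) to 1.85, and Pigr and Dmbt1 changed sign under 7 and 2 of 29 alternatives. Signals near background limit Reg3g, Ltf and Pigr in PBS hearts to bounds, and the changes with normexp were smaller than those bounds.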

Other observations

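A few genes of the mucosal defence list that did not pass were looked at after their values were seen. Il6, the interleukin-6 cytokine, was well above background on all 4 female meth arrays, on none of the 3 female PBS arrays, on 1 of 4 male meth arrays and on no male PBS array. Its female log2 fold change was 2.21 ± 0.61 (SE), with an adjusted p of 0.134 in limma, and its male one 0.43 ± 0.56 (SE, adjusted p = 0.812). The male minus female difference of -1.79 ± 0.83 (SE) had an adjusted p of 0.579. Pglyrp1, a peptidoglycan recognition protein of neutrophils and mucosa, was above background on all 15 arrays, with a male log2 fold change of 1.48 ± 0.33 (SE, adjusted p = 0.0605) and a female one of -0.09 ± 0.36 (SE, adjusted p = 0.967). Neither gene passed.

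The 2 female meth hearts with the highest Reg3g, replicates 1 and 4, also had the highest Bpifa1 of the female hearts, at -0.35 and -0.16, against -3.03 and -2.71 in the other female meth hearts and -6.96 to -5.98 in female PBS hearts. The same 2 hearts had the highest neutrophil marker sums of the female meth group.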
